A study of Rattus norvegicus with 12 samples.

Results

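Valsartan-treated and saline-treated spontaneously hypertensive rats (SHRs) were compared by left atrial RNA-seq, with 3 libraries in each group, 6 of the 12 libraries of the series. The SHR is an inbred rat strain whose blood pressure rises with age. SHRs of the ARB group were fed valsartan (30 mg/kg/day) for 4 weeks, and those of the SHR group were fed saline (7.5 ml/kg/day) for the same time, so the groups are also called the valsartan and saline groups. All the rats were male and 14 weeks old when purchased, and they differed in no labelled allele or transgene. The members were the read-count columns named ARB_A and SHR_A, each with replicates 1 to 3. The strain words of the titles contradict these names: the SHR_A libraries are titled as Wistar-Kyoto (WKY) rats, the normotensive control strain of the series, and the labels of all the libraries give WKY as the strain. The libraries were grouped by their names. Counts of 2 genes were alike in the 6 libraries and unlike those of the 3 libraries named WKY_A: Ndufa10l1 had 798 to 1282 reads in the SHR libraries, 883 to 1128 in the ARB libraries and 0 in the WKY_A libraries, and Mettl24 had 0, 0 to 1 and 34 to 42 reads. The study used 3 rats a group, and RNA came from a portion of the atrium.

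Valsartan blocks the angiotensin II type 1 (AT1) receptor. Angiotensin II is made stepwise from angiotensinogen, the last step by angiotensin-converting enzyme, and through the AT1 receptor it drives vasoconstriction, aldosterone release, cell growth and the deposition of matrix. In atrial muscle the same receptor is linked to fibrosis through transforming growth factor beta (TGF-β) and connective tissue growth factor, to oxidants made by NADPH oxidase with the small GTPase Rac1, and to altered ion channels. Natriuretic peptides, which atrial myocytes store and release on stretch, oppose many of these actions through cyclic GMP. The comparison asks what changes in the atrial transcriptome of SHRs under AT1 receptor blockade.

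The 6 libraries held 12614014 to 15122145 counts, and 0 reads in a library allow a level of up to 3 counts, or 0.198 to 0.238 CPM. CPM are the counts of a gene after scaling every library to an equal total, here with TMM factors over the 6 libraries, and values of a group are given in the order of replicates 1, 2 and 3. Replicates of a group differed by more than the sampling noise of their counts (chi-square per degree of freedom of 23.9 to 112), so none was counted together with another. P-values measure only the spread between these libraries.

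The marker genes set 3 libraries apart before any comparison. Myl7, the myosin light chain of atrial muscle, measured 10606, 4663 and 8535 CPM in the saline group and at 11763, 8493 and 5480 CPM in the valsartan group. Myl2, its ventricular counterpart, was at 0.733, 2392 and 0.126 CPM in the saline group and at 2.90, 3.54 and 2741 CPM in the valsartan group. SHR replicate 2 and ARB replicate 3 thus held both chamber programs, and they are called the mixed-chamber libraries here. Irx4, a ventricular transcription factor, behaved alike, at 32.4 and 27.9 CPM in the mixed-chamber libraries and at most 0.0667 CPM in the other 4. The summed CPM of the 12 ventricular markers was 12148 and 13167 in the mixed-chamber libraries and 744 to 1248 in the others. The mean log2(CPM + 1) of 17 atrial markers less that of the ventricular markers was 5.62, 1.51 and 5.03 in the saline group and 5.31, 5.35 and 1.69 in the valsartan group. With 1 mixed library on each side, the group means of this score were 4.05 ± 2.22 and 4.12 ± 2.10 (SD, n = 3 each), a difference of 0.06 with a two-sided exact permutation p of 0.900, where the smallest p possible is 0.10.

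SHR replicate 3 stood apart in another way. Bmp10, which the adult heart makes mainly in the right atrium, was at 930, 194 and 0.948 CPM in the saline group and at 830, 536 and 193 CPM in the valsartan group. Hamp, which encodes hepcidin and is also known from the right atrium, was at 1241, 975 and 74.9 CPM in the saline group and at 1668, 976 and 1133 CPM in the valsartan group. The labelled tissue is the left atrium, and Bmp10 was near 0 in SHR replicate 3 and at 193 to 930 CPM in the other 5 libraries. No second library of that kind exists in either group, so values that rest on SHR replicate 3 are given with and without it below. In bulk tissue, fewer cells of a type and less RNA per cell cannot be told apart.

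Other cell types also differed between single libraries. The adipocyte genes Adipoq, Plin1, Cidec and Lep, which encode adiponectin, perilipin, a lipid droplet protein and leptin, were at 183, 65.5, 65.6 and 15.2 CPM in ARB replicate 2 and at most 0.760 CPM in every other library. ARB replicate 3 had the highest hemoglobin and macrophage RNA: the erythroid list summed to 4097 CPM there and 401 to 1027 CPM in the other 5, and the 8 macrophage markers to 457 CPM against 105 to 271 CPM. The 8 mesothelial markers summed to 84.7 CPM in ARB replicate 3 and 220 to 435 CPM in the others, and the 8 fibroblast markers to 7397 CPM in SHR replicate 3 and 2326 to 5137 CPM in the others. Lung epithelium and neutrophil markers each summed to at most 7.77 CPM in any library, and the thymus and lymph node markers to 84.1 CPM in SHR replicate 3 and at most 13.6 CPM in the others.

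**Figure D1:**
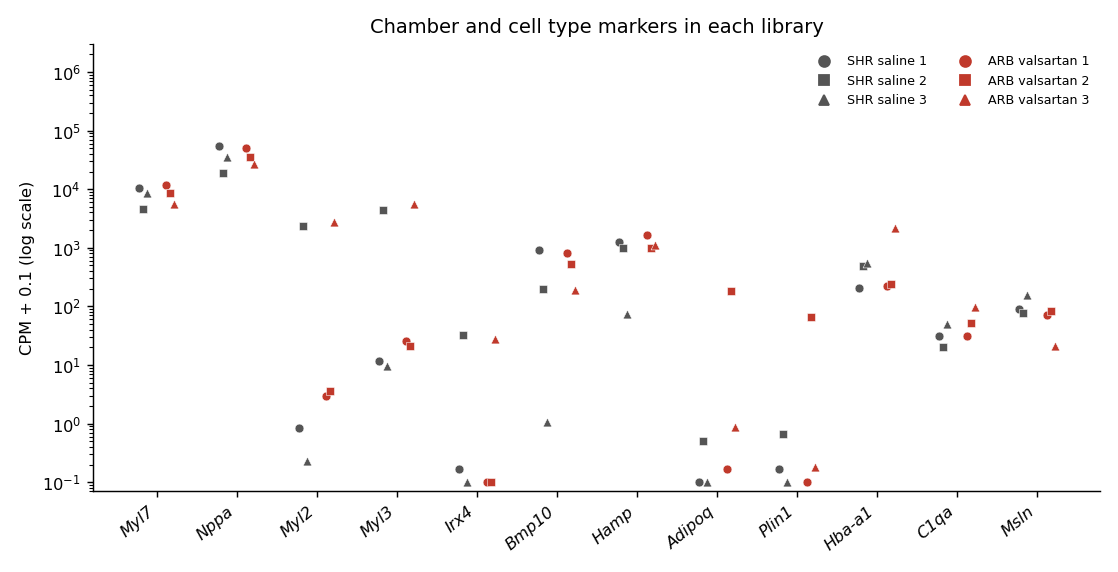
CPM + 0.1 on a log axis for 12 chamber and cell type markers in each of the 6 libraries (grey, SHR group with saline, red, ARB group with valsartan, the shape gives the replicate number). Myl2, Myl3 and Irx4 are high in SHR replicate 2 and ARB replicate 3, Bmp10 is lowest in SHR replicate 3, and Adipoq and Plin1 are high in ARB replicate 2 alone.

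With edgeR's quasi-likelihood test and Benjamini-Hochberg adjustment, 0 of 13979 genes tested (0%) passed both thresholds, a log2 fold change of 1 or more in size and an adjusted p of at most 0.05, between the ARB and SHR groups, and 0 passed on the adjusted p alone. The lowest adjusted p of any gene was 0.9999, so each gene named below failed the correction. At an unadjusted p under 0.05 there were 225 genes (1.61%), 113 higher and 112 lower in the ARB group. The 3 ARB values lay above the 3 SHR values for 351 genes (2.51%) and below them for 482 (3.45%). Log2 fold changes of 1 or more in size were seen upward in 142 genes (1.02%) and downward in 120 (0.858%). The median standard error of a log2 fold change was 0.21, and the median absolute log2 fold change was 0.14.

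DESeq2 called 3 of 18452 genes (0.0163%) at the same thresholds. They were LOC100911837, LOC100909761 and LOC103690016, which also had the lowest unadjusted p in edgeR's test. Without the mixed-chamber libraries, edgeR called 0 of 14083 genes (0%), with 318 (2.26%) at an unadjusted p under 0.05, and DESeq2 called 10 of 16145 (0.0619%). Of the 318, 164 were higher (1.16%) and 154 lower (1.09%). With 2 libraries in each group, the groups did not overlap for 12.6% of genes upward and 13% downward, 1.37% and 1.38% had log2 fold changes of 1 or more in size, and 50.4% of all genes were higher. The common biological coefficient of variation was 28.8% over the 6 libraries and 21.5% over the 4. Of the 225 genes at an unadjusted p under 0.05, 223 were tested in the 4 libraries, and 223 had the same direction there, which those libraries share in part by construction. An unadjusted p under 0.05 remained for 88 of them.

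The 20 genes whose groups did not overlap and whose unadjusted p was lowest, 10 in each direction, are described first. Of these, 11 carry placeholder symbols (LOC or NEWGENE), and the identifiers of 9 of the 11 were not in the GRCr8 gene table. RSEM shares a read between the genes it matches, so levels of genes with near-copies are uncertain. Whether these 11 genes have near-copies was not tested. LOC100911837 was at 0.933, 0.985 and 0.379 CPM in the saline group and at 6.13, 5.24 and 6.93 CPM in the valsartan group (log2 fold change 2.99, standard error 0.38, unadjusted p = 1.29e-04, DESeq2 adjusted p = 2.17e-07). LOC100909761 was at 2.60, 1.48 and 1.96 CPM and at 8.62, 6.81 and 6.84 CPM (log2 fold change 1.87, standard error 0.27, unadjusted p = 2.71e-04, DESeq2 adjusted p = 1.11e-04). For both genes the ARB libraries lay close together, the mixed-chamber one among them, well above all the SHR libraries. LOC103690016 had 2.2, 7.88 and 2.91 CPM in the saline group and no read in the valsartan group, at least 19.9-fold lower when each ARB library is set to 3 counts (DESeq2 adjusted p = 1.07e-05). LOC100911956, which the GRCr8 table lists as the pseudogene Llph-ps1, was at 6.93, 8.05 and 11.2 CPM in the saline group and at 18.7, 16.8 and 19.9 CPM in the valsartan group (log2 fold change 1.08, unadjusted p = 0.00157).

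Among the named protein-coding genes that were higher, Cyp21a1, steroid 21-hydroxylase of the path to aldosterone and corticosterone, was at 21.5, 19.0 and 18.4 CPM in the saline group and at 26.1, 34.5 and 41.1 CPM in the valsartan group (log2 fold change 0.79, standard error 0.19, unadjusted p = 0.00442). All its ARB values were above its SHR values, and the lowest of them was nearer to the SHR group than the others. Gtpbp6, a GTP-binding protein of mitochondrial ribosomes, was at 13.4, 12.5 and 11.1 CPM and at 18.4, 16.7 and 22.8 CPM (log2 fold change 0.64, unadjusted p = 0.00747). Gfi1, a transcriptional repressor of blood cells, and Smco3 were below 3 CPM in all the libraries, with log2 fold changes of 1.47 and 1.63. Of the 10 genes that were higher, 9 kept an unadjusted p under 0.05 without the mixed-chamber libraries. The exception was LOC100909548, at 75.9, 37.8 and 71.6 CPM in the valsartan group (log2 fold change 1.26 over 6 libraries and 1.06 over 4, unadjusted p = 0.0545). Those 4 libraries are among the 6 by which these genes were chosen, so a low p over them is no independent check.

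Among the genes that were lower, Cpt1a, the liver-type carnitine palmitoyltransferase that gates the entry of long-chain fatty acids into mitochondria, was at 72.7, 91.0 and 65.1 CPM in the saline group and at 45.1, 49.9 and 55.6 CPM in the valsartan group. The groups were at 76.2 ± 13.3 and 50.2 ± 5.26 CPM (SD, n = 3 each), a log2 fold change of -0.60 with a 95% interval of -1.0 to -0.21 (unadjusted p = 0.00875). It was -0.54 without the mixed-chamber libraries (unadjusted p = 0.00787), and between -0.71 and -0.45 with any 1 library left out. Olr1, the endothelial receptor for oxidized low-density lipoprotein, was at 4.20, 3.2 and 6.95 CPM in the saline group and at 1.55, 2.29 and 1.01 CPM in the valsartan group (log2 fold change -1.55, standard error 0.42, unadjusted p = 0.00794, and -1.54 without the mixed-chamber libraries). Its highest level was in SHR replicate 3, and without that library the log2 fold change was -1.18 (unadjusted p = 0.0286).

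Tbcel, a tubulin cofactor-like protein, was at 26.1, 26.8 and 33.0 CPM in the saline group and at 19.5, 19.1 and 18.7 CPM in the valsartan group (log2 fold change -0.59, unadjusted p = 0.00367). Crnkl1, a splicing factor, was at 7.87, 8.46 and 8.47 CPM and at 4.99, 4.91 and 5.49 CPM (log2 fold change -0.69, unadjusted p = 0.00526). Both had narrow groups that did not overlap. Lsmem1, a membrane protein, had a log2 fold change of -0.50 (unadjusted p = 0.00602). NEWGENE_1309551 was at 9.80, 2.38 and 5.24 CPM in the saline group and at 0.606, 1.05 and 1.52 CPM in the valsartan group (log2 fold change -2.46, and -3.17 without the mixed-chamber libraries, where DESeq2 called it with an adjusted p of 6.77e-04). All 10 genes that were lower kept an unadjusted p under 0.05 over the 4 libraries. As they were chosen by their p over libraries that include those 4, this is no independent check. Of the 223 genes at that p over 6 libraries and tested over the 4, 88 kept it.

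**Figure D2:**
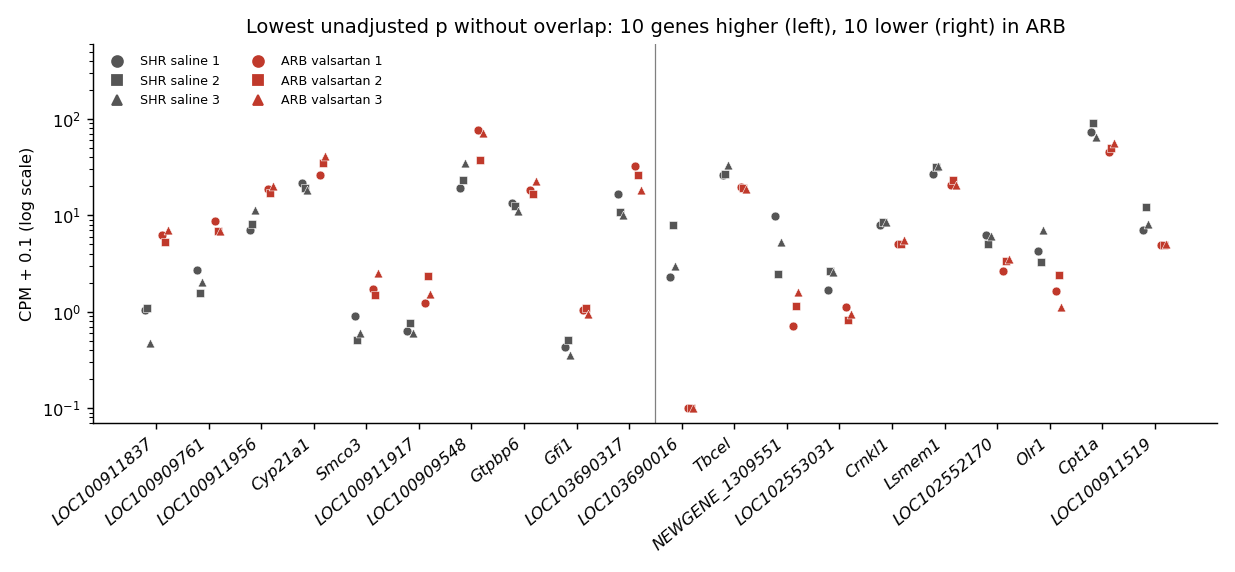
CPM + 0.1 on a log axis for the 10 genes higher and the 10 genes lower in the ARB group with the lowest unadjusted p among genes whose groups do not overlap (grey, SHR group, red, ARB group, the shape gives the replicate number). LOC103690016 has no read in the valsartan group, and Cpt1a separates at 65.1 to 91.0 CPM against 45.1 to 55.6 CPM.

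Genes of the angiotensin system, the direct setting of the drug, were as often higher as lower. Of 20 members tested, 10 were higher and 10 lower, with 0 at an unadjusted p under 0.05 in either direction (0.808% of all genes higher and 0.801% lower), and the median log2 fold change was 0.01 against -0.01 over all genes. The groups did not overlap for 2 of them, Prcp and Cma1, both higher (2.51% of all genes). Agtr1a, the main AT1 receptor gene of the rat and the target of valsartan, was at 2.67, 4.35 and 5.43 CPM in the saline group and at 3.17, 4.85 and 4.14 CPM in the valsartan group. The groups overlapped entirely, and the log2 fold change was -0.04 with a 95% interval of -0.81 to 0.74. Agtr1b, the other AT1 gene, had no read in any of the 6 libraries, and Agtr2, the type 2 receptor, had 1 read in ARB replicate 2. Ace, the converting enzyme, was at 8.40, 16.3 and 20.7 CPM and at 8.02, 12.5 and 13.7 CPM (log2 fold change -0.41, 95% interval -1.27 to 0.45).

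Agt, angiotensinogen, was at 3.60, 1.23 and 1.83 CPM in the saline group and at 2.09, 21.7 and 1.94 CPM in the valsartan group. Its high value came from ARB replicate 2, the library with adipocyte transcripts, and without that library the log2 fold change went from 1.94 to -0.14. Mme, neprilysin, which degrades natriuretic peptides, was likewise highest in ARB replicate 2, at 3.93 CPM against 0.20 to 1.14 CPM elsewhere. Prcp, a carboxypeptidase that can cleave angiotensin II, was at 7.87, 7.22 and 7.52 CPM and at 8.96, 8.71 and 11.4 CPM, without overlap (log2 fold change 0.36, unadjusted p = 0.0881, and 0.20 over the 4 libraries, unadjusted p = 0.354). Cma1, mast cell chymase, which can also form angiotensin II, was at 0.733, 1.31 and 1.52 CPM and at 1.55, 2.62 and 1.60 CPM (log2 fold change 0.70, unadjusted p = 0.125). The part of adipocyte RNA in the values of ARB replicate 2 was not tested.

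Natriuretic peptide genes overlapped between the groups. Nppa, atrial natriuretic peptide, was at 53456, 18686 and 35828 CPM in the saline group and at 50463, 35833 and 27138 CPM in the valsartan group, and in both groups the mixed-chamber library was the lowest. Its log2 fold change was 0.07 (95% interval -1.02 to 1.16) and -0.05 without the mixed-chamber libraries. Nppb, B-type natriuretic peptide, was at 850, 198 and 1132 CPM and at 1498, 530 and 510 CPM (log2 fold change 0.22, 95% interval -1.42 to 1.86). Npr3, the clearance receptor, was at 574, 172 and 546 CPM and at 593, 469 and 68.7 CPM, lowest in the mixed-chamber library of each group, with a log2 fold change of -0.20, and -0.08 over the 4 libraries. Of the 18 members tested, 8 were higher and 10 lower (median -0.05), and 0 were at an unadjusted p under 0.05. The lowest p values belonged to Npr2, the receptor for C-type natriuretic peptide, at 45.7, 58.9 and 58.9 CPM and at 43.3, 46.8 and 39.8 CPM (log2 fold change -0.33, unadjusted p = 0.0560), and to Prkg1, cyclic GMP-dependent protein kinase, whose groups did not overlap (-0.72, unadjusted p = 0.0649, and -0.39 without SHR replicate 3, unadjusted p = 0.239).

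**Figure D3:**
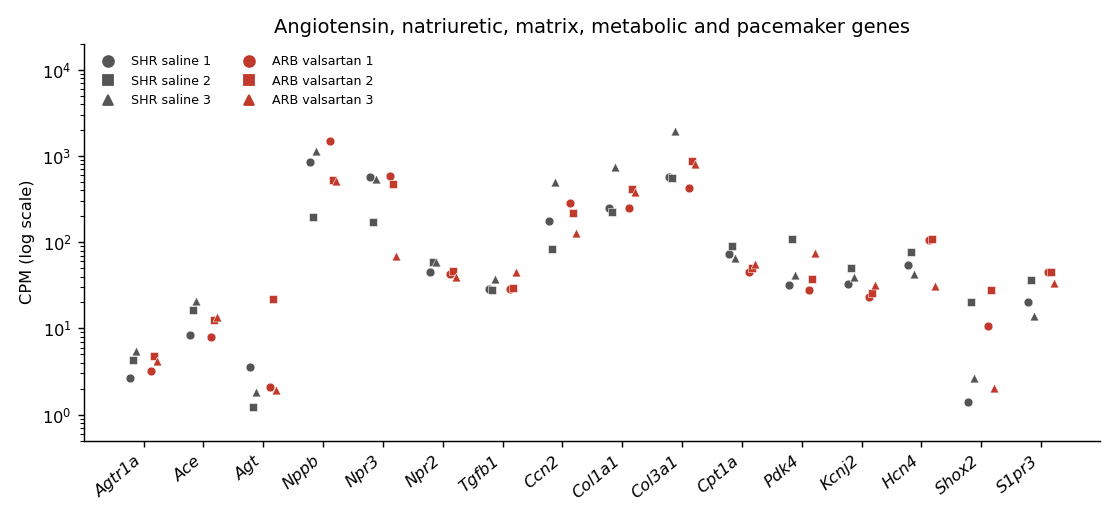
CPM on a log axis for 16 genes of the angiotensin and natriuretic peptide systems, the matrix, metabolism and the pacemaker in each of the 6 libraries (grey, SHR group, red, ARB group, the shape gives the replicate number). The groups of Agtr1a and Nppb overlap, Agt is high in ARB replicate 2 only, and Ccn2, Col1a1 and Col3a1 are highest in SHR replicate 3.

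Matrix genes were mostly lower in the ARB group, and that direction rested on SHR replicate 3. Of 54 collagen and matrix genes tested, 7 were higher and 47 lower, with a median log2 fold change of -0.25, and 0 were at an unadjusted p under 0.05 or without overlap. Over all genes tested, 48.6% were higher. The list summed to 7740, 6920 and 14492 CPM in the saline group and to 7721, 9044 and 8074 CPM in the valsartan group, and 46 of the 54 members had their highest level in SHR replicate 3, against 23.2% of all genes. Without that library 40 of 54 were higher and the median was 0.23, whereas without the mixed-chamber libraries 2 were higher and the median was -0.47.

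Col1a1 and Col3a1, the fibrillar collagens of scar, showed it singly. Col1a1 was at 248, 223 and 749 CPM in the saline group and at 249, 417 and 384 CPM in the valsartan group, and its log2 fold change of -0.22 (95% interval -1.40 to 0.96) became 0.57 without SHR replicate 3. Col3a1 was at 572, 556 and 1978 CPM and at 428, 872 and 802 CPM (-0.56, and 0.31 without SHR replicate 3). Postn, periostin of activated fibroblasts, was at 2.27, 5.58 and 13.8 CPM and at 3.10, 10.8 and 6.42 CPM (-0.10, and 0.79 without SHR replicate 3). Each of the 3 genes thus changed direction with 1 library, which also had the highest fibroblast markers and the lowest Bmp10. Eln, elastin, was at 166, 70.0 and 244 CPM and at 104, 101 and 66.3 CPM. Its log2 fold change was -0.82 over 6 libraries and -1.0 over 4 (unadjusted p = 0.00506, DESeq2 adjusted p = 0.0278), and SHR replicates 1 and 3 were both above ARB replicates 1 and 2. Without SHR replicate 3 it was -0.38 (unadjusted p = 0.368).

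In the TGF-β list 15 of 44 members tested were higher and 29 lower (median -0.12), and 0 were at an unadjusted p under 0.05. Without SHR replicate 3, 25 were higher and the median was 0.09. Tgfb1, the ligand that drives fibroblast activation, was at 28.7, 28.0 and 37.1 CPM in the saline group and at 28.9, 29.3 and 44.8 CPM in the valsartan group, highest in ARB replicate 3, where macrophage RNA was also highest. Its log2 fold change was 0.13 (95% interval -0.39 to 0.65) and -0.18 without the mixed-chamber libraries. Ccn2, connective tissue growth factor and a TGF-β target, was at 176, 82.7 and 500 CPM and at 285, 219 and 127 CPM (-0.27, and 0.70 without SHR replicate 3). Thbs1, thrombospondin that activates latent TGF-β, was at 8.33, 3.12 and 139 CPM and at 10.4, 6.94 and 5.32 CPM. Its log2 fold change of -2.73 rested on SHR replicate 3 alone, and without that library it was 0.39.

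All 78 cytosolic ribosomal protein genes tested were higher in the ARB group, with a median log2 fold change of 0.35, and 77 of 78 were higher without the mixed-chamber libraries, with a median of 0.18. Only Rps26 was at an unadjusted p under 0.05 (0.808% of all genes higher), and in 2 of the 78 the groups did not overlap (2.51% of all genes). The summed level was 25942, 23076 and 19706 CPM in the saline group and 28694, 23048 and 36144 CPM in the valsartan group, so ARB replicate 2 lay below SHR replicates 1 and 2. The highest value of 76 members was in ARB replicate 3 and the lowest of 74 in SHR replicate 3, and without SHR replicate 3 the median was 0.26, with 74 higher. Without ARB replicate 3 the median was 0.17, with 77 higher. Rps26, a protein of the small subunit, was at 70.9, 63.4 and 46.5 CPM and at 99.1, 74.8 and 116 CPM (log2 fold change 0.68, 95% interval 0.15 to 1.22, unadjusted p = 0.0195, and 0.57 over the 4 libraries, unadjusted p = 0.0686). Ribosomal protein genes have many processed pseudogenes, between which the counting could split reads.

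The proteasome list had 42 of 43 members higher, with a median of 0.13, and 37 higher with a median of 0.10 without the mixed-chamber libraries. It rested on single libraries, since 25 were higher without SHR replicate 3 (median 0.017) and 21 without ARB replicate 3 (median -0.00016). The exception was Psme4, a proteasome activator, at 202, 228 and 197 CPM in the saline group and at 160, 195 and 166 CPM in the valsartan group (log2 fold change -0.27, unadjusted p = 0.108), without overlap. Psmb10, a subunit of the immunoproteasome, was at 11, 11.3 and 12.3 CPM and at 12.4, 11.5 and 21.5 CPM, a log2 fold change of 0.39 that was 0.03 over the 4 libraries. Of the respiratory chain genes, 75 of 78 were higher (median 0.21) in both sets of libraries, with a median of 0.13 over the 4. The summed level was 33428, 50101 and 26175 CPM in the saline group and 33955, 30155 and 57828 CPM in the valsartan group. The mixed-chamber libraries were the highest of each group and SHR replicate 3 the lowest of all, and without SHR replicate 3 the count was 42 of 78 and the median 0.01. Without ARB replicate 3 the direction turned, with 2 of 78 higher and a median of -0.17. In neither list was any member at an unadjusted p under 0.05.

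Amino acid biosynthesis genes were higher for 38 of 52 members (median 0.11), with 0 at an unadjusted p under 0.05 over 6 libraries, and for 44 of 52 (median 0.17) without the mixed-chamber libraries, with 4 (1.16% of all genes). The counts were 29 of 52 without SHR replicate 3 (median 0.04) and 29 of 53 without SHR replicate 1 (median 0.02), against 46 of 53 without SHR replicate 2 (median 0.37). Phgdh, the first enzyme of serine synthesis, was at 4.67, 4.52 and 3.03 CPM in the saline group and at 4.65, 18.3 and 5.91 CPM in the valsartan group. Asns, asparagine synthetase, was at 7.07, 4.10 and 6.51 CPM and at 10.1, 14.9 and 5.15 CPM (log2 fold change 0.77, and 0.88 over the 4 libraries, unadjusted p = 0.0173, but 0.37 without ARB replicate 2). Phgdh was high only in ARB replicate 2, as was Acly, ATP citrate lyase of fatty acid synthesis, at 251 CPM there and 29.1 to 39.6 CPM in the other libraries, beside the adipocyte genes of that library.

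**Figure D4:**
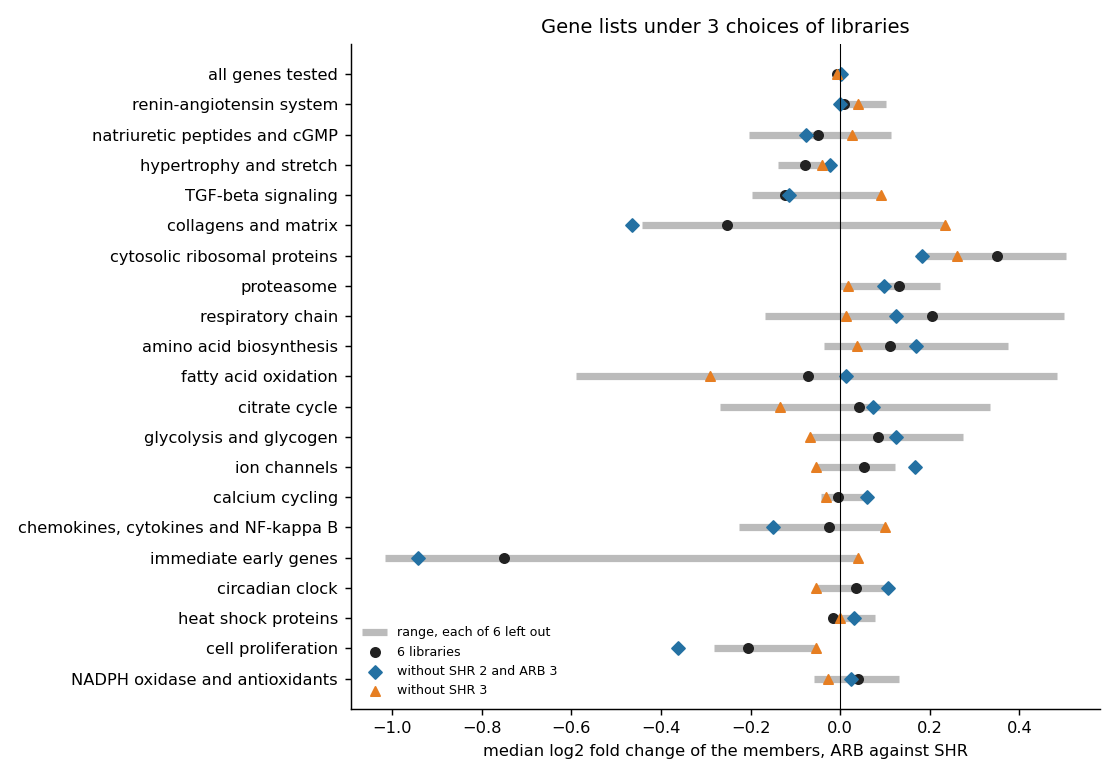
Median log2 fold change of the members of 20 gene lists and of all genes tested, ARB against SHR group, over the 6 libraries (black circles), without SHR replicate 2 and ARB replicate 3 (blue diamonds), and without SHR replicate 3 (orange triangles), with the range over fits leaving out each library in turn (grey bars). The ribosomal list stays above 0 in every fit shown, and the matrix and immediate early lists cross 0 without SHR replicate 3.

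Fatty acid oxidation genes tracked the mixed-chamber libraries in both groups. The list summed to 7052, 17686 and 6607 CPM in the saline group and to 6750, 6843 and 16651 CPM in the valsartan group. Of 42 members tested, 15 were higher and 27 lower (median -0.07), and over the 4 libraries 22 of 41 were higher (median 0.01). Hadha, the alpha subunit of the mitochondrial trifunctional protein, was at 403, 995 and 407 CPM and at 417, 402 and 880 CPM (log2 fold change -0.09, 95% interval -1.22 to 1.05). Without the mixed-chamber libraries its log2 fold change was 0.01. Pdk4, the kinase that shuts off pyruvate dehydrogenase, was at 32.3, 109 and 41.8 CPM and at 28.2, 37.3 and 74.1 CPM (-0.39, and -0.18 over the 4 libraries). Cpt1a was the only member of the list at an unadjusted p under 0.05 in the 6 libraries (0.801% of all genes lower). It was also the only one whose groups did not overlap (3.45% of all genes lower). Citrate cycle genes were higher for 15 of 29 members over 6 libraries (median 0.04), 27 without the mixed-chamber libraries (median 0.07), and 4 without SHR replicate 3 (median -0.13) or without ARB replicate 3 (median -0.27). Glycolysis and glycogen genes were higher for 21 of 32 (median 0.08), for 26 of 32 without the mixed-chamber libraries (median 0.12) and for 13 of 33 without SHR replicate 3 (median -0.07).

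Ion channel genes held 1 member at an unadjusted p under 0.05 in each direction among 48 tested (0.808% of all genes higher and 0.801% lower). Without the mixed-chamber libraries 34 of 48 were higher (median 0.17), with 5 higher and 1 lower at that p (1.16% and 1.09% of all genes). Without SHR replicate 3, 18 of 48 were higher (median -0.05). Kcnj2, the inward rectifier Kir2.1 that sets the resting potential, was at 32.4, 49.8 and 39.2 CPM in the saline group and at 23.0, 25.5 and 31.7 CPM in the valsartan group. The groups were at 40.5 ± 8.74 and 26.7 ± 4.48 CPM (SD, n = 3 each), and the log2 fold change was -0.60 (95% interval -1.09 to -0.11, unadjusted p = 0.0224) and -0.57 without the mixed-chamber libraries (unadjusted p = 0.0135). Kcnv2, a silent potassium channel subunit that modifies delayed rectifiers, was at 4.73, 4.10 and 3.41 CPM and at 6.60, 7.73 and 6.17 CPM (log2 fold change 0.74, 95% interval 0.23 to 1.25, unadjusted p = 0.0111, and 0.81 over the 4 libraries). Neither gene overlapped between the groups. Calcium cycling genes were higher for 16 of 33 members (median -0.01), with 0 at an unadjusted p under 0.05.

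Oxidant and inflammatory genes gave single values of this kind. Rac1, the small GTPase that activates NADPH oxidase, was at 281, 278 and 258 CPM in the saline group and at 288, 272 and 295 CPM in the valsartan group (log2 fold change 0.06, 95% interval -0.25 to 0.37). Srxn1, sulfiredoxin that restores oxidized peroxiredoxins, was at 18.5, 18.2 and 26.2 CPM and at 15.0, 12.9 and 15.4 CPM (-0.54, unadjusted p = 0.0243, -0.69 over the 4 libraries, and -0.35 without SHR replicate 3, unadjusted p = 0.0737). Ncf4, the p40 subunit of phagocyte NADPH oxidase, was at 1.93, 1.64 and 2.53 CPM and at 2.69, 3.67 and 3.63 CPM (0.70, unadjusted p = 0.0420, and 0.51 over the 4 libraries, unadjusted p = 0.203). Of 38 genes on the NADPH oxidase and antioxidant list, 25 were higher (median 0.04). Among 45 chemokine, cytokine and NF-kappa B genes 20 were higher (median -0.02), and Ptgs2, cyclooxygenase 2, was at 1.53, 0.903 and 16.2 CPM and at 0.808, 1.24 and 0.338 CPM, a log2 fold change of -2.94 that was -0.60 without SHR replicate 3.

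Macrophage markers were higher for all 8 members over 6 libraries (median 0.59) and for 4 of 8 without the mixed-chamber libraries (median 0.02). Without ARB replicate 3 alone 7 of 8 were higher (median 0.30). Without SHR replicate 3 all 8 were (median 1.18), with 4 at an unadjusted p under 0.05 (168 of all 14159 genes higher, 1.60% in either direction). Without ARB replicate 1 the count was 8 (median 0.95), also with 4 at that p, where 184 of all 14265 genes tested were higher at that p. C1qb, a complement subunit of resident macrophages, was at 29.7, 22.2 and 54.3 CPM in the saline group and at 35.6, 56.7 and 110 CPM in the valsartan group. It was highest in ARB replicate 3, the library that also had the most hemoglobin RNA, and lowest in SHR replicate 2. The log2 fold change was 0.93 over 6 libraries, 0.38 without ARB replicate 3 alone, 0.69 without SHR replicate 2 alone and 0.13 without both.

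Immediate early genes, which cells switch on within minutes of stimulation, stress or handling, gave the largest median of any pathway list. Of 37 members tested, 32 were lower and 5 higher in the ARB group (median -0.75), 7 of them lower at an unadjusted p under 0.05 (0.801% of all genes). Without the mixed-chamber libraries the counts were 35 lower and 2 higher (median -0.94). The list summed to 1720, 1862 and 9449 CPM in the saline group and to 1482, 1824 and 1998 CPM in the valsartan group, and 32 of the 37 members were highest in SHR replicate 3. Fos, a subunit of the AP-1 transcription factor, was at 23.1, 22.0 and 593 CPM and at 19.4, 29.5 and 21.4 CPM. Nr4a1, an orphan nuclear receptor, was at 109, 74.5 and 1228 CPM and at 48.7, 78.4 and 50.1 CPM. SHR replicates 1 and 2 thus lay within or close to the ARB range for Fos, and for Nr4a1 SHR replicate 1 was above it.

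Egr3, a zinc finger transcription factor, was at 2.40, 3.2 and 116 CPM in the saline group and at 1.75, 2.23 and 1.86 CPM in the valsartan group. Its log2 fold change was -4.38 over 6 libraries and -0.52 without SHR replicate 3 (unadjusted p = 0.151). For Fosb the values were -5.10 and 0.14, for Egr2 -4.34 and -0.15, and for Nr4a1 -3.0 and -0.64 (unadjusted p = 0.0628 for the last). Without that library 20 of 37 members were higher and the median was 0.04. In that fit 1 was lower at an unadjusted p under 0.05 (58 of all 14159 genes lower, 1.60% in either direction).

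Among circadian clock genes, Arntl and Npas2 were lower and Cry1 was higher in the ARB group at an unadjusted p under 0.05 over the 6 libraries. In each cell Arntl (also called Bmal1) pairs with Clock or Npas2 to switch on the Per and Cry genes, whose proteins then block it, and the nuclear receptors of the Ror and Nr1d families act on Arntl through the ROR element. Of 20 members tested, 12 were higher (median 0.04), with 1 at an unadjusted p under 0.05 in the higher (0.808% of all genes) and 2 in the lower direction (0.801%). Arntl was at 4.07, 9.11 and 26.3 CPM in the saline group and at 4.18, 3.01 and 2.79 CPM in the valsartan group (log2 fold change -1.99, unadjusted p = 0.0203). SHR replicate 1 lay within the ARB range, and SHR replicate 3 was far above it. Npas2 was at 15.2, 14.1 and 45.1 CPM and at 12.2, 11 and 7.18 CPM, without overlap (-1.29, unadjusted p = 0.0343). Without the mixed-chamber libraries the log2 fold change was -2.09 for Arntl (unadjusted p = 0.0584) and -1.39 for Npas2 (unadjusted p = 0.0407).

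Of the genes that Arntl acts on, Cry1 and Per2 had the lowest p. Cry1 was at 7.13, 10.3 and 6.63 CPM in the saline group and at 11.6, 15.1 and 11.2 CPM in the valsartan group, without overlap (log2 fold change 0.66, unadjusted p = 0.0277, and 0.95 over the 4 libraries, unadjusted p = 0.00640). Per2 was at 71.2, 51.9 and 36.3 CPM and at 78.8, 107 and 66.9 CPM (0.67, unadjusted p = 0.0512, and 0.79 over the 4 libraries, unadjusted p = 0.0678). Other members of these families differed less, with log2 fold changes of -0.17 for Per1, 0.03 for Per3, 0.05 for Cry2, -0.07 for Nr1d1 and 0.02 for Nr1d2. SHR replicate 3 had the highest Arntl and Npas2 and the lowest Cry1 and Per2 of all 6 libraries. Without it the log2 fold changes kept their directions at -0.98 for Arntl, -0.53 for Npas2, 0.53 for Cry1 and 0.45 for Per2, with unadjusted p values of 0.0550, 0.0864, 0.0830 and 0.126. The hour at which each rat was killed is not given in the sources used here, and whether it differed between the libraries was not tested.

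The promoters of Arntl, the clock gene with the lowest unadjusted p over the 6 libraries, and Per2, a gene on which its protein acts, are shown. Both are RefSeq sequences of build GRCr8, from 250 bases before to 50 after the start of the gene, 5′ to 3′ on the strand of the gene, at chr1:176766078-176766377 (plus strand) for Arntl and chr9:99496944-99497243 (minus strand) for Per2. Capitals mark the core of the ROR element (TAGGTCA) in Arntl and, in Per2, the D-box TTATGTAA, to which Dbp, Tef, Hlf and Nfil3 bind, and the E-box variant CACGTT, to which Clock and Arntl bind.
Arntl: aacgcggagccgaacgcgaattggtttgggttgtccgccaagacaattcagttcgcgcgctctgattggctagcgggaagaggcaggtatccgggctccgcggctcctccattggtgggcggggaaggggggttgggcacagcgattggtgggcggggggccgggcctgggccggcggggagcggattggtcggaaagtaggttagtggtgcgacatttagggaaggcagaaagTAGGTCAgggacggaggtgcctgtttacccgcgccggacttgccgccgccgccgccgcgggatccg
Per2: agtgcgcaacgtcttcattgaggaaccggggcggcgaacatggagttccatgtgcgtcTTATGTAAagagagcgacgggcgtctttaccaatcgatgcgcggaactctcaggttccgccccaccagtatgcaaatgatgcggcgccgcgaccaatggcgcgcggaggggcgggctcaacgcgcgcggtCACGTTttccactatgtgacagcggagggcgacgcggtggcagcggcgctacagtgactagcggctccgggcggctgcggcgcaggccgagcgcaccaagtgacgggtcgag
Both strands were searched, and the motifs do not overlap each other in these windows. Among 27457 promoters of the same length, 2.60% held TAGGTCA, 0.881% held TTATGTAA, 4.93% held CACGTT and 6.65% held the E-box CACGTG. Of the 17 clock genes with a promoter in the table, TAGGTCA was in 1 (Arntl), TTATGTAA in 1 (Per2), CACGTT in 3 (Cry2, Nr1d1 and Per2) and CACGTG in 4 (Bhlhe41, Tef, Ciart and Bhlhe40). Such matches describe the letters and show no binding.

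**Figure D5:**
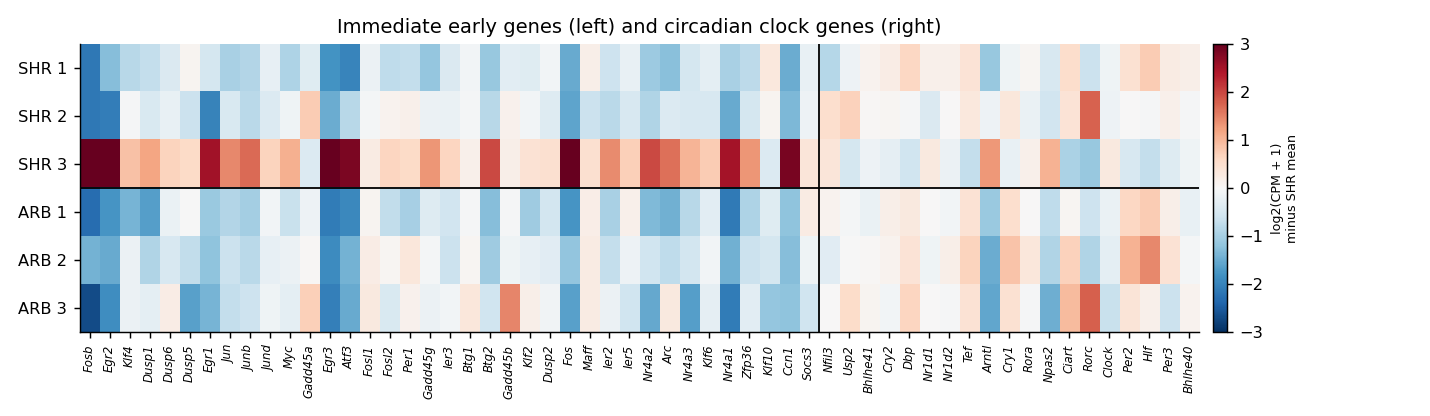
Differences of log2(CPM + 1) from the mean of the SHR libraries (color scale from -3 to 3) for 37 immediate early genes and, right of the line, the clock genes not among them, by library (rows). SHR replicate 3 is highest for 32 of the immediate early genes and for Arntl and Npas2. Npas2 is lower and Cry1 higher in each ARB library than in all the SHR libraries.

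Proliferation genes were lower for 33 of 43 members (median -0.21), 3 of them at an unadjusted p under 0.05 (0.801% of all genes). Without the mixed-chamber libraries 35 of 43 were lower (median -0.36), 5 of them at that p (1.09% of all genes). Cenpf, a kinetochore protein made in dividing cells, was at 1.0, 0.739 and 2.02 CPM in the saline group and at 0.269, 0.393 and 0.422 CPM in the valsartan group, without overlap (log2 fold change -1.79, unadjusted p = 0.0112, and -2.17 over the 4 libraries). Mki67, the Ki-67 antigen, was at 2.53, 3.86 and 7.58 CPM and at 1.62, 2.88 and 1.86 CPM (-1.13, unadjusted p = 0.0451, and -1.17 over the 4 libraries, unadjusted p = 0.113). Rrm2, a subunit of ribonucleotide reductase, was at 3.53, 1.72 and 7.14 CPM and at 1.01, 2.10 and 1.77 CPM (-1.35, unadjusted p = 0.0468, and -1.78 over the 4 libraries, unadjusted p = 0.0195). All 3 were highest in SHR replicate 3, as were 24 of the 43 members, and without it the median was -0.05 and Cenpf alone of the 3 kept an unadjusted p under 0.05 (-1.26, unadjusted p = 0.0495).

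For 2 pacemaker genes the difference was larger without the mixed-chamber libraries. Hcn4, the main pacemaker channel of the sinoatrial node, was at 55.1, 76.4 and 43.1 CPM in the saline group and at 106, 110 and 31.1 CPM in the valsartan group. Its log2 fold change was 0.50 over 6 libraries (95% interval -0.62 to 1.62) and 1.14 over the 4 (edgeR unadjusted p = 6.26e-04, DESeq2 adjusted p = 7.73e-05). Shox2, a transcription factor of the node, was at 1.40, 20.1 and 2.65 CPM and at 10.7, 28.0 and 2.03 CPM (0.76 over 6 libraries and 3.24 over the 4, DESeq2 adjusted p = 5.25e-05). SHR replicate 2, one of the libraries left out, had Shox2 between the levels of ARB replicates 1 and 2. Tbx18, another transcription factor of the node that also marks epicardium, was at 25.6, 24.5 and 32.0 CPM and at 18.7, 20.4 and 7.18 CPM, lower without overlap (-0.83, and -0.56 over the 4 libraries, unadjusted p = 0.0180).

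S1pr3, a sphingosine-1-phosphate receptor, was chosen after its values were seen. It was at 20.3, 36.4 and 13.8 CPM in the saline group and at 45.2, 45.2 and 33.3 CPM in the valsartan group (0.81 over 6 libraries and 1.40 over the 4, DESeq2 adjusted p = 4.11e-04). Over the 4 libraries DESeq2 also called LOC100912163, LOC103694079 and LOC103690175, likewise named after their values were seen, which had no read in SHR replicates 1 and 3, at least 39.3-fold, 22.0-fold and 17.8-fold higher against 3 counts per library, and NEWGENE_1308612, with no read in ARB replicates 1 and 2, at least 16.3-fold lower. The first 2 had 11.2 and 6.16 CPM in SHR replicate 2, the mixed-chamber library of the SHR group, so their absence was not shared by all SHR libraries. In ARB replicate 3, the other library left out, LOC103690175 had no read and NEWGENE_1308612 was at 2.11 CPM, both against the direction of the call. The remaining 3 of the 10 calls were LOC100911837, LOC103690016 and NEWGENE_1309551.

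Schwann cell genes also differed between single libraries. S100b, a calcium-binding protein of glia, was at 1.80, 5.99 and 2.15 CPM in the saline group and at 2.56, 24.8 and 7.01 CPM in the valsartan group. It was highest in ARB replicate 2 and overlapped between the groups, with a log2 fold change of 1.80 over 6 libraries and 2.78 over the 4 (unadjusted p = 0.0423). Without ARB replicate 2 it was 0.54. Over the 4 libraries 4 of the 5 Schwann cell markers were higher at an unadjusted p under 0.05 (1.16% of all genes), and over the 6 libraries 0 were. The 5 markers summed to 73.7, 115 and 72.0 CPM in the saline group and to 79.0, 152 and 99.6 CPM in the valsartan group. SHR replicate 2, one of the libraries left out, was thus the highest of its group. Without SHR replicate 3 alone, 2 of the 5 were higher (median -0.0081).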

How the data were processed

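The authors filtered single-end reads from a BGISEQ-500 instrument with SOAPnuke and mapped them with HISAT2 (2.0.4) and Bowtie2 (2.2.5), and the submitters' processing notes name the genome build Rnor_6.0. They deposited gene-level expected counts estimated by RSEM and not normalized, of which 23.6% are not whole numbers because a read that matches several genes is shared between them. The table names 37246 genes by their NCBI identifiers, 21239 of them with counts, and 2683 of these had no read in the 6 libraries. A further 2 columns hold the authors' own comparison of SHR with WKY, a log2 fold change and its p-value, and were not used. Identifiers were matched to a GRCr8 gene table, with 91.7% found, for names, biotypes and promoter sequences.

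The counts were rounded to whole numbers. Low genes were removed by filterByExpr of edgeR, scaling was by TMM, and the 3 ARB libraries were compared with the 3 SHR libraries by edgeR's quasi-likelihood test (edgeR 4.0.16, R 4.3.3) with Benjamini-Hochberg adjustment over all genes tested. Calls needed a log2 fold change of 1 or more in size and an adjusted p up to 0.05, as in the study. Standard errors were derived from the F statistic. P-values are unadjusted where so named. The same test was run without SHR replicate 2 and ARB replicate 3. DESeq2 (1.42.0), the study's tool, was an alternative. Gene lists (20 of pathways and 21 of cell types) were written by hand and are described by counts and medians, with no set test. The members of the comparison, the gene lists and the tests were chosen with earlier results of these data known. Named genes were the 10 in each direction with the lowest unadjusted p among genes whose groups do not overlap, since fewer than 10 were called, up to 4 members of each list by p, and fixed genes of the angiotensin, natriuretic, matrix and chamber programs, some of which are not reported here. The code was tested on simulated counts. Limits set by a count of 0 cover counting error only. Python 3.11.15 with pandas 2.3.3, numpy 2.4.6, scipy 1.17.1 and matplotlib 3.10.9 was used for summaries and plots.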

Additional observations from a re-analysis of the deposited data

How the results depend on the processing

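No choice of scaling, filter, library set, covariate or block gave a gene past the thresholds in edgeR, with 1 exception. The count stayed at 0 with RLE scaling, with library totals, without the filter, with 9 or 12 libraries in the fit, with a chamber score as covariate, with the replicate block, without a threshold on fold change, and on leaving out each library in turn (0 to 0). The exception was the fit without the mixed-chamber libraries and SHR replicate 3, chosen after seeing the data, which called 1 gene. That gene, Vwa5a, was at 1.53 CPM in SHR replicate 1 and 41.0 to 79.5 CPM in the other SHR libraries, and that lone library is assumed to vary like the ARB libraries. DESeq2 gave 3 calls over 6 libraries and 10 over 4. Genes at an unadjusted p under 0.05 numbered 174 with the replicate block and 535 with the chamber score, against 225. Libraries of the same number had correlations of deviations from the group means of 0.49, -0.37 and -0.33, so the numbers were not taken to pair the rats. SHR replicates 2 and 3 correlated best with another number (0.62 and 0.32). The 0.62 was between the mixed-chamber libraries, so these correlations cannot tell pairing from a shared chamber make-up.

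The chamber score difference of 0.06 ranged from -1.21 to 1.28 on leaving out 1 library (-1.21 without SHR replicate 2, -0.53 without ARB replicate 1 and -0.56 without ARB replicate 2). Over the lists, 1 median moved by more than the spread between libraries apart from leaving out 1 library, that of cell proliferation, at -0.36 without the mixed-chamber libraries. On leaving out each library in turn, medians that moved by more than that spread ranged from -0.0041 to 0.10 for the angiotensin list, -0.20 to 0.11 for the natriuretic list, -0.20 to 0.092 for TGF-beta signaling, -0.036 to 0.37 for amino acid biosynthesis, -0.22 to 0.10 for the cytokine list, -1.02 to 0.040 for immediate early genes, -0.0071 to 0.078 for heat shock proteins, -1.57 to 1.58 for ventricular markers and -0.0081 to 1.02 for Schwann cell markers. Medians of other pathway lists changed sign within that spread, from -0.44 to 0.23 for collagens and matrix, -0.17 to 0.50 for the respiratory chain, -0.59 to 0.48 for fatty acid oxidation and -0.27 to 0.33 for the citrate cycle, and by less for the proteasome, glycolysis, ion channel, calcium cycling, clock and NADPH oxidase lists.

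Among the named genes that changed sign when 1 library was left out, log2 fold changes ranged from -0.28 to 0.21 for Agtr1a, -0.14 to 2.47 for Agt, -0.24 to 0.47 for Nppa, -0.48 to 0.69 for Nppb, -0.68 to 0.30 for Npr3, -0.11 to 0.27 for Tgfb1, -0.69 to 0.70 for Ccn2, -3.29 to 0.39 for Thbs1 and -0.51 to 0.57 for Col1a1. Further such ranges ran from -0.86 to 0.31 for Col3a1, -0.61 to 0.79 for Postn, -0.56 to 0.49 for Hadha, -0.90 to 0.33 for Pdk4, -0.058 to 2.02 for Acly, -5.69 to 0.14 for Fosb and -0.32 to 2.74 for Shox2. They also ran from -3.72 to 0.054 for Fos, -0.18 to 0.38 for Myl7, -7.96 to 11.1 for Myl2 and -0.11 to 2.41 for Bmp10. Without the mixed-chamber libraries the sign also changed for Nppa (-0.052), Tgfb1 (-0.18) and Hadha (0.012), and with the replicate block for Ccn2 (0.11) and Postn (0.092). The part of each left-out library in these changes was not tested.

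At these depths and spreads most single-gene intervals were wide, and a p above the threshold does not show that a gene was at equal levels. Chamber make-up was balanced only in so far as each group held a mixed-chamber library. The side and cell make-up of the libraries cannot be separated from the treatment in groups of 3.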
